A study of Mus musculus with 2 samples.

Results

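The chemokine ligands are the small secreted or membrane-tethered proteins that steer leukocytes through tissue, and 30 of the 19465 genes measured in psoriasis-like mouse skin belong to them by symbol. A gene was taken as a ligand when its symbol was *Ccl*, *Cxcl*, *Cx3cl* or *Xcl* followed by digits, with at most 1 trailing letter. No expression value entered this choice. *Pf4* and *Ppbp*, chemokines that do not carry such a symbol, were left out, and *Cxcl2*, *Cxcl11*, *Cx3cl1*, *Ccl19*, the *Ccl21* genes and the *Ccl27* genes were not analysed here. Of the 30 genes, 12 lie on chromosome 11, 9 on chromosome 5, 3 on chromosome 8, and the others on chromosomes 1, 6, 7 and 13.

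Spatial transcriptomics was run on 1 section of dorsal skin from an *S1pr2* f/f mouse and 1 from an *S1pr2* f/f K14-Cre mouse, both 8 weeks old. Both carry *S1pr2* alleles flanked by loxP sites, and in the latter the keratin 14 promoter drives Cre, so that the sphingosine 1-phosphate receptor 2 gene is deleted in keratinocytes of the epidermis and hair follicles rather than in fibroblasts, leukocytes or vessels. Both mice were depilated 1 day earlier and then given 62.5 mg of 5% imiquimod (IMQ) cream daily for 7 days, and there was no section without IMQ. Each genotype is represented by 1 mouse and 1 section, so no test between genotypes was possible and no p-value is given. All 95% intervals cover counting error only (exact Poisson for a level, conditional binomial for a ratio).

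Chemokines bind G protein-coupled receptors on leukocytes and are grouped by the spacing of their first cysteines. CC ligands mostly draw monocytes, eosinophils, dendritic cells and T cells, and CXC ligands mostly draw neutrophils, B cells or activated T cells. In skin, some are made steadily by fibroblasts and vessels, such as *Cxcl12*, whereas others are switched on in keratinocytes and leukocytes during inflammation through NF-κB or interferon signalling.

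The *S1pr2* f/f section held 1282 spots and 5315351 unique molecular identifiers (UMIs, each the tag of 1 captured molecule), and the *S1pr2* f/f K14-Cre section 981 spots and 2845826 UMIs. Levels are given as CPM, the UMIs of a gene per 1000000 UMIs of all genes in the same spots. A spot can hold several cells, so fewer cells of a type and less RNA in each cell cannot be told apart. *S1pr2* itself had 29.0 CPM (24.6 to 33.9) in *S1pr2* f/f and 19.0 CPM (14.3 to 24.8) in *S1pr2* f/f K14-Cre. Its 154 UMIs in *S1pr2* f/f were above the highest of the olfactory receptor genes used below as background (36 UMIs). In *S1pr2* f/f K14-Cre its 54 UMIs lay between the 95th percentile of those genes (33) and the highest (57). UMIs of different genes come from different probes, so they order the genes by counts and not by expression.

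Upstream sequence is shown for 4 ligands on which the results turn: *Cxcl12*, the ligand that was lower in *S1pr2* f/f K14-Cre, *Ccl8*, whose ratio over all spots had the opposite sign to that of *Ccl7* in the same cluster, and *Ccl9* and *Ccl6*, which were led by the same layer. Each is the 250 bases before the RefSeq start on GRCm38.p6, written in the direction of the gene. Capitals mark the TATA sequence TATAAA and the kappa-B consensus of NF-κB, searched on both strands.
*Cxcl12*, chr6:117168285-117168534, plus strand: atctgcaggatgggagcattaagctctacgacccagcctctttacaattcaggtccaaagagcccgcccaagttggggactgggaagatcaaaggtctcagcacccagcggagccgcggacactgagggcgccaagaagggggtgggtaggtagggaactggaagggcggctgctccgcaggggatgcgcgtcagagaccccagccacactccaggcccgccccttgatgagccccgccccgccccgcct
*Ccl8*, chr11:82114935-82115184, plus strand: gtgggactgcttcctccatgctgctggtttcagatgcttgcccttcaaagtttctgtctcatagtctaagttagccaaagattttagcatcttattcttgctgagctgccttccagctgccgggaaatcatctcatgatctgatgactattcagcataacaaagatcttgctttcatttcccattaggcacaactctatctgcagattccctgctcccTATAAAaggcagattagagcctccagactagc
*Ccl9*, chr11:83578637-83578886, minus strand: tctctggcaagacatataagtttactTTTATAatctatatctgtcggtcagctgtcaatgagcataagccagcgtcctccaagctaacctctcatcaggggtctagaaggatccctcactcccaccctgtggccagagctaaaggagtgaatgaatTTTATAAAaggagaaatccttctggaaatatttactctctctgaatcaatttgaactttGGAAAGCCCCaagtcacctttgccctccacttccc
*Ccl6*, chr11:83593088-83593337, minus strand: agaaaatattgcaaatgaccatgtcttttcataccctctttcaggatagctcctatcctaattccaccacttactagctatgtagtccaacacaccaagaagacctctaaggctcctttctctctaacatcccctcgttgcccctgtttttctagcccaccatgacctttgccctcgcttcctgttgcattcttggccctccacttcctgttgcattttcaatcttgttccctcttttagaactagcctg

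The table of upstream sequences held 20 of the 30 ligands in 21 windows. The kappa-B consensus was found upstream of 6 of them (*Ccl1*, *Ccl9*, *Ccl20*, *Cxcl1*, *Cxcl3* and *Cxcl10*), and in 7.25% of all 32851 windows of that length. TATAAA was found upstream of 8 of the 20 ligands and in 12.4% of all windows, *Ccl8* and *Ccl9* included. In *Ccl9* it was found 3 times, of which 2 matches overlap. Neither was found in the windows of *Cxcl12* and *Ccl6*. A match is a description of the letters only.

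First, the ligands were set against the 970 olfactory receptor (*Olfr*) genes, which skin hardly expresses and whose counts therefore mark the background of each section. An *Olfr* gene had a median of 11 UMIs in *S1pr2* f/f and 16 in *S1pr2* f/f K14-Cre, or 2.07 and 5.62 CPM. The 95th percentile of *Olfr* genes lay at 22 and 33 UMIs, and the highest at 36 and 57. More UMIs than the 95th percentile were found for 20 of the 30 ligands in *S1pr2* f/f, beside 72.9% of all genes other than *Olfr*, and for 12 in *S1pr2* f/f K14-Cre, beside 64.4%. Those 12 passed in both sections, beside 61.4% of all genes. Above the highest *Olfr* gene were 14 ligands in *S1pr2* f/f (62.9% of all genes) and 9 in *S1pr2* f/f K14-Cre (47.2%), and the same 9 were above it in both (46.5%).

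**Figure D1:**
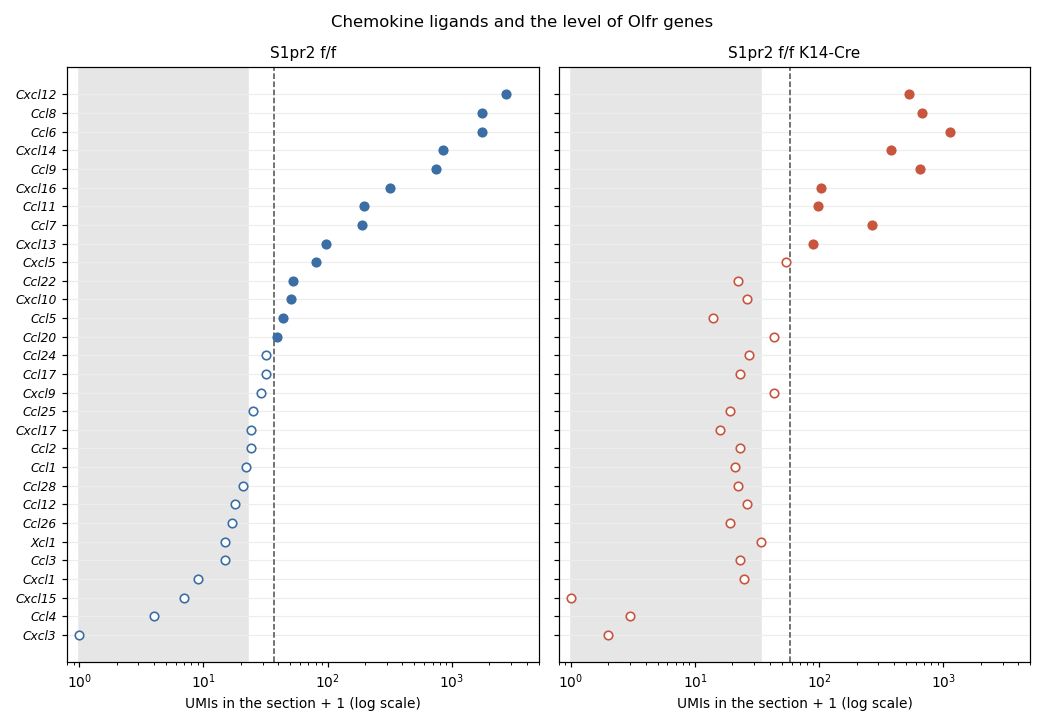
UMIs of the 30 chemokine ligands in each section plus 1, on a log scale. The grey area ends at the 95th percentile of *Olfr* genes, the dashed line is the highest *Olfr* gene, and filled points lie above it. The same 9 ligands are filled in both panels, and 5 more only in *S1pr2* f/f.

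The 9 ligands above every *Olfr* gene in both sections were *Cxcl12*, *Cxcl13*, *Cxcl14* and *Cxcl16* and the CC ligands *Ccl6*, *Ccl7*, *Ccl8*, *Ccl9* and *Ccl11*. None of them is among the ligands of CXCR2 and CXCR3 that draw neutrophils and activated T cells. *Cxcl12*, the stromal ligand of CXCR4 and the scavenger ACKR3, had 2732 UMIs in 669 spots in *S1pr2* f/f and 532 UMIs in 247 spots in *S1pr2* f/f K14-Cre. Its level was 514 CPM (495 to 534) against 187 CPM (171 to 204). *Ccl8*, counted among the monocyte chemoattractant proteins, had 1748 and 671 UMIs, or 329 CPM (314 to 345) and 236 CPM (218 to 254). For these 2 genes the *S1pr2* f/f section was the higher.

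*Ccl6* and *Ccl9*, myeloid ligands of CCR1, lie in 1 cluster on chromosome 11, and both differed by less than 2-fold over all spots. *Ccl6* had 1735 and 1123 UMIs, or 326 CPM (311 to 342) and 395 CPM (372 to 418), a direction that turned with TMM scaling (log2 ratio -0.10). *Ccl9* had 739 and 650 UMIs, or 139 CPM (129 to 149) and 228 CPM (211 to 247). *Ccl7*, a ligand of CCR2 that draws monocytes, had 189 and 263 UMIs, or 35.6 CPM (30.7 to 41.0) and 92.4 CPM (81.6 to 104). It was the only one of the 9 with more UMIs in the shallower section.

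*Cxcl14*, made by epithelia and fibroblasts, had 841 and 377 UMIs, or 158 CPM (148 to 169) and 132 CPM (119 to 147). *Cxcl16*, a membrane-tethered ligand of CXCR6, had 315 and 102 UMIs, or 59.3 CPM (52.9 to 66.2) and 35.8 CPM (29.2 to 43.5). *Ccl11*, the eosinophil attractant eotaxin, had 197 and 96 UMIs, or 37.1 CPM (32.1 to 42.6) and 33.7 CPM (27.3 to 41.2), so that its intervals overlapped. *Cxcl13*, which draws B cells through CXCR5, had 96 and 88 UMIs, or 18.1 CPM (14.6 to 22.1) and 30.9 CPM (24.8 to 38.1).

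Of the 5 ligands above every *Olfr* gene in *S1pr2* f/f only, *Cxcl5*, a neutrophil attractant, had 80 UMIs there and 53 in *S1pr2* f/f K14-Cre, or 15.1 CPM (11.9 to 18.7) and 18.6 CPM (13.95 to 24.4). *Ccl20*, the CCR6 ligand that draws IL-17-producing lymphocytes, had 38 and 42 UMIs, or 7.15 CPM (5.06 to 9.81) and 14.8 CPM (10.6 to 19.9). Both stayed above the 95th percentile of *Olfr* genes in *S1pr2* f/f K14-Cre. *Ccl22*, a ligand of CCR4, had 52 and 21 UMIs, or 9.78 CPM (7.31 to 12.8) and 7.38 CPM (4.57 to 11.3). *Cxcl10*, induced by interferon, had 50 and 25 UMIs, or 9.41 CPM (6.98 to 12.4) and 8.78 CPM (5.69 to 13.0). *Ccl5*, a T cell product, had 43 and 13 UMIs, or 8.09 CPM (5.85 to 10.9) and 4.57 CPM (2.43 to 7.81). In *S1pr2* f/f K14-Cre these 3 were within the *Olfr* range, so that their level there was not distinguishable from background.

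A further 6 ligands passed the 95th percentile and not the highest *Olfr* gene. *Cxcl9*, the interferon-induced neighbour of *Cxcl10*, did so in both sections with 28 and 42 UMIs. *Ccl24* (31 and 26 UMIs), *Ccl17* (31 and 22), *Ccl25* (24 and 18), *Cxcl17* (23 and 15) and *Ccl2* (23 and 22) did so in *S1pr2* f/f only. Their log2 ratios of *S1pr2* f/f K14-Cre over *S1pr2* f/f were 1.48 for *Cxcl9*, 0.65 for *Ccl24*, 0.42 for *Ccl17*, 0.50 for *Ccl25*, 0.30 for *Cxcl17* and 0.84 for *Ccl2*. With the mean *Olfr* count of each section taken off, the ratio stayed above 0 for *Cxcl9* and changed sign for *Ccl24* (-0.20), *Ccl17* (-1.03), *Ccl25* (-2.57) and *Ccl2* (-0.28), so these 4 have no settled direction. *Cxcl17* has none either. Its 15 UMIs in *S1pr2* f/f K14-Cre were under the mean *Olfr* count of 16.9, which leaves no such ratio, and its reported interval (-0.76 to 1.29) holds 0. The other 10 ligands (*Ccl1*, *Ccl3*, *Ccl4*, *Ccl12*, *Ccl26*, *Ccl28*, *Cxcl1*, *Cxcl3*, *Cxcl15* and *Xcl1*) were not above the 95th percentile in either section and had 0 to 33 UMIs. *Cxcl3* was at 0 in *S1pr2* f/f and *Cxcl15* at 0 in *S1pr2* f/f K14-Cre, with intervals that end at 0.694 and 1.30 CPM. The neutrophil attractant *Cxcl1* had 8 and 24 UMIs over all spots.

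Next, the layers of the 9 ligands were compared. In each section 4 sets of spots were taken, those among the top 20% of spots with at least 500 UMIs in their share of epidermis, dermis, fat or muscle marker UMIs, and among the top 20% of no other list. No ligand is a marker. The epidermis, dermis, fat and muscle sets held 218, 142, 82 and 147 spots in *S1pr2* f/f and 187, 134, 76 and 127 in *S1pr2* f/f K14-Cre. The sets were not pure and not alike in both sections. The 15 epidermis markers summed to 112323 CPM in the epidermis set of *S1pr2* f/f and 60986 in that of *S1pr2* f/f K14-Cre. The 10 muscle markers summed to 4707 and 39178 CPM in the dermis sets, whereas the 10 dermis markers summed to 32979 and 45652 CPM there. In the fat sets the 8 fat markers summed to 9555 and 24196 CPM, less than the muscle markers at 22446 and 86998 CPM. The part of these differences in the results below was not tested.

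The epidermis held less of the chemokine signal than the layers under it. In both sections 8 of the 9 ligands had a lower level in the epidermis set than in the other 3 sets together, with an interval of the ratio below 1. Among all 8605 genes above every *Olfr* gene in both sections, 47.6% did so in *S1pr2* f/f, 29.7% in *S1pr2* f/f K14-Cre and 24.9% in both. *Ccl6* had 27.9 CPM in the epidermis set of *S1pr2* f/f, 0.0469 times its level in the other sets (0.0323 to 0.0661), and 77.1 CPM in that of *S1pr2* f/f K14-Cre, 0.155 times (0.112 to 0.210). *Ccl9* had 18.1 and 27.4 CPM there, 0.0806 times (0.0498 to 0.124) and 0.0979 times (0.0552 to 0.161). The dermis set alone was above the epidermis set, with an interval over 1, for 8 ligands in *S1pr2* f/f (43.7% of all genes), 7 in *S1pr2* f/f K14-Cre (29.4%) and 7 in both (22.2%). *Ccl11* in *S1pr2* f/f K14-Cre, on 4 and 10 UMIs, was the difference between the 2 counts. The exception was *Cxcl16*, which was higher in the epidermis set than in the others, 1.45 times (1.04 to 2.03) and 2.08 times (1.24 to 3.50).

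*Cxcl12* was highest in the dermis set of both sections, with 1189 CPM (1103 to 1279) in *S1pr2* f/f and 292 CPM (246 to 344) in *S1pr2* f/f K14-Cre. Its fat sets had 910 and 189 CPM, its muscle sets 388 and 98.3 CPM, and its epidermis sets 48.4 and 70.2 CPM. *Ccl7* was also highest in the dermis sets, with 91.9 CPM (69.3 to 120) and 153 CPM (121 to 192). *Ccl6* and *Ccl9* were highest in the fat sets, *Ccl6* with 950 and 681 CPM and *Ccl9* with 303 and 414 CPM. In *S1pr2* f/f the interval of *Ccl9* in the fat set (246 to 370) overlapped that in the dermis set (208 to 289). In *S1pr2* f/f K14-Cre the intervals of these sets overlapped for *Ccl6* and *Ccl9*. Overlap of 2 such intervals does not show that the levels were equal. The other 5 ligands were led by different sets in the 2 sections, so that 4 of 9 kept their leading set, beside 47.8% of all genes. Dermis led 2 ligands in both sections, beside 15.3% of all genes, fat 2, beside 8.77%, and epidermis and muscle 0, beside 13.8% and 9.89%. *Ccl8* was highest in the dermis set of *S1pr2* f/f (694 CPM, 629 to 764), and in *S1pr2* f/f K14-Cre its dermis and fat sets had 298 CPM (252 to 350) and 303 CPM (238 to 381), which do not differ beyond their intervals. *Ccl11* had 93.6 CPM (70.7 to 122) in the dermis set of *S1pr2* f/f, where that set led, and 20.1 CPM (9.66 to 37.0) in the dermis set of *S1pr2* f/f K14-Cre, where the fat set led with 61.5 CPM (34.4 to 101). *Cxcl14* was highest in the dermis set of *S1pr2* f/f (336 CPM) and the fat set of *S1pr2* f/f K14-Cre (184 CPM). For *Cxcl16* these were the dermis set (70.2 CPM) and the epidermis set (58.2 CPM), and for *Cxcl13* the fat set (46.4 CPM) and the dermis set (28.2 CPM). For these ligands and *Ccl11*, the interval of the leading set overlapped that of the second set in each section. A change of leading set is therefore not settled for them.

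**Figure D2:**
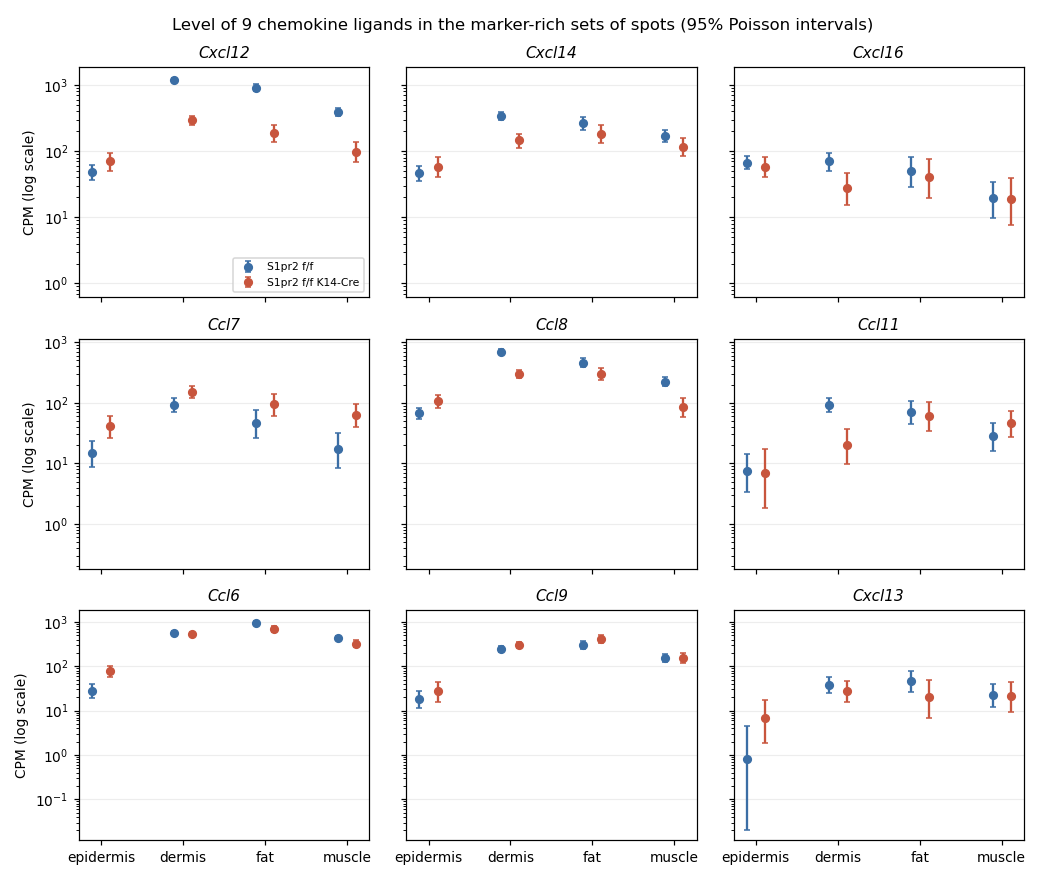
Level in CPM, on a log scale, of the 9 ligands above every *Olfr* gene in both sections, in the 4 marker-rich sets of spots. Points are the value of a set, bars the 95% Poisson interval, blue *S1pr2* f/f and red *S1pr2* f/f K14-Cre. The epidermis set is below the dermis set in both sections for all but *Cxcl16*. *Cxcl12* is lower in *S1pr2* f/f K14-Cre in the 3 sets under the epidermis.

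Among the 5 ligands above every *Olfr* gene in *S1pr2* f/f only, *Ccl20* and *Ccl22* did not have their highest level in the dermis set of that section. *Ccl20* had 6.57 CPM in the epidermis set of *S1pr2* f/f (8 UMIs) and 18.8 CPM in that of *S1pr2* f/f K14-Cre (11 UMIs), the leading set in both, but its ratios to the other sets, 1.40 (0.443 to 4.53) and 2.32 (0.873 to 6.33), had intervals that hold 1. *Ccl22* was led by the epidermis set in *S1pr2* f/f (11.5 CPM, 14 UMIs) and by the fat set in *S1pr2* f/f K14-Cre (8.20 CPM, 2 UMIs). *Cxcl5* had 35.1 CPM in the dermis set of *S1pr2* f/f, 8.24 times the other sets (3.62 to 20.4), and 18.1 CPM in that of *S1pr2* f/f K14-Cre, 1.67 times (0.628 to 4.21). *Cxcl10* (20.1 CPM, 12 UMIs) and *Ccl5* (21.7 CPM, 13 UMIs) were also highest in the dermis set of *S1pr2* f/f. In *S1pr2* f/f K14-Cre *Ccl5* was highest in the dermis set (16.1 CPM, 8 UMIs) and *Cxcl10* had 12.1 CPM in the dermis set and 12.3 CPM in the fat set. In that section these counts of *Ccl20*, *Ccl22*, *Ccl5* and *Cxcl10* were not above the 95th percentile of *Olfr* genes in the same set. Their layer there is therefore not distinguishable from background.

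Position gave another view of the layers that does not use marker genes. Of the 9 ligands, 5 were lower in the 2 uppermost spots than in the deeper ones in both sections. The share of all genes with that pattern was not computed, so the count does not set the ligands apart from other genes. The spots of each array column were counted from the surface. *Cxcl12* had 47.3 CPM in the first and 812 CPM in the third spot of *S1pr2* f/f, and 74.0 and 334 CPM in those of *S1pr2* f/f K14-Cre. *Ccl7* was higher in *S1pr2* f/f K14-Cre at each of the 6 depths. *Ccl8* was higher in *S1pr2* f/f K14-Cre in the first spot (60.5 and 112 CPM) and the second (268 and 430 CPM). It was lower there in the third (508 and 385 CPM). From the fourth spot down, *Ccl8* had 279 to 433 CPM in *S1pr2* f/f and 74.6 to 151 CPM in *S1pr2* f/f K14-Cre. The sixth and deeper positions held 248 spots in *S1pr2* f/f and 89 in *S1pr2* f/f K14-Cre. The *S1pr2* f/f section is curled at 1 end, so its deepest positions mix tissues.

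**Figure D3:**
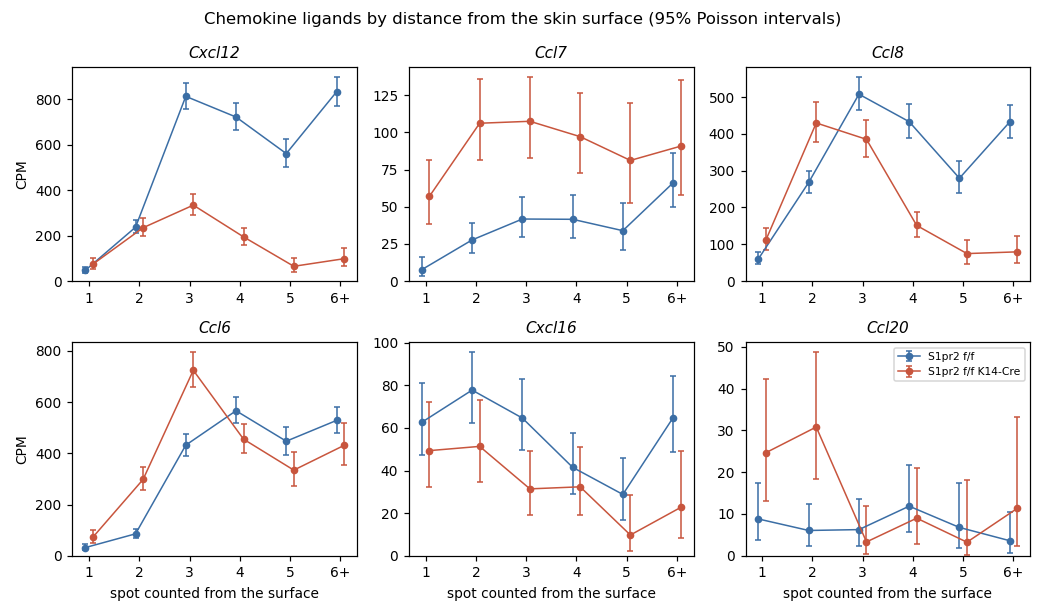
Level in CPM of 6 ligands by the position of a spot, counted from the skin surface in each array column, with spots from the sixth down pooled (6+). Points are sums over spots, bars 95% Poisson intervals, blue *S1pr2* f/f and red *S1pr2* f/f K14-Cre. *Cxcl12* has overlapping intervals in the first and second spots and is lower in *S1pr2* f/f K14-Cre below them.

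The sections were then compared. A ligand was counted as higher or lower in *S1pr2* f/f K14-Cre when it had at least 20 UMIs over both sections, differed at least 2-fold and had an interval of the log2 ratio (pseudocount 0.5 UMIs) that leaves out 0. Over all spots, 27 of the 30 ligands had 20 UMIs. *Cxcl12* alone was lower, beside 4.4% of all 18125 genes, with a log2 ratio of -1.46 (-1.60 to -1.32), or 2.75-fold. Counted as higher were 8 ligands (*Ccl3*, *Ccl7*, *Ccl12*, *Ccl20*, *Ccl26*, *Cxcl1*, *Cxcl9* and *Xcl1*), beside 27.4% of all genes. With the mean *Olfr* count of each section taken off, *Ccl26* turned to -1.12 and was counted as lower, and with spots thinned to 1000 UMIs *Xcl1* turned to -0.19. Of the 8 ligands, *Ccl7* alone was above every *Olfr* gene in both sections, with a log2 ratio of 1.38 (1.10 to 1.66). The *Olfr* genes summed to 2074 and 5746 CPM, a log2 ratio of 1.47 (1.44 to 1.51), and none of the 8 ligands had an interval above that ratio, while 16 of the 27 had one below it. The shares of all genes with an interval above or below it were not computed. The median log2 ratio was 0.65 over the 27 ligands and 0.40 over all genes tested, both below the *Olfr* ratio.

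All 30 ligands together had 1718 CPM in *S1pr2* f/f and 1535 CPM in *S1pr2* f/f K14-Cre, a log2 ratio of -0.16 (-0.22 to -0.11). This sum weighs each ligand by its UMIs, *Cxcl12* most in *S1pr2* f/f, and the ratio without *Cxcl12* was not computed. Taken ligand by ligand, the median log2 ratio over the 27 tested was 0.65, so the sum does not stand for most ligands. The tissue in the 2 sections was not alike over all spots, with epidermis markers at 52431 and 18179 CPM, muscle markers at 21301 and 65476 CPM and dermis markers at 14603 and 19426 CPM, whose part in these ratios was not tested. *Cxcl12* made up 29.9% of the ligand UMIs in *S1pr2* f/f and 12.2% in *S1pr2* f/f K14-Cre, while *Ccl6* went from 19.0% to 25.7%, *Ccl9* from 8.09% to 14.9% and *Ccl7* from 2.07% to 6.02%. Shares of the same total depend on each other, so a lower share of *Cxcl12* by itself raises the others. Shares with *Cxcl12* left out were not computed. Among the 14 ligands above every *Olfr* gene in at least 1 section, others with an interval leaving out 0 but under 2-fold were *Ccl9* (0.72, 0.56 to 0.87), *Cxcl13* (0.78, 0.34 to 1.21) and *Ccl6* (0.27, 0.16 to 0.38, but -0.10 with TMM scaling) above 0, and *Cxcl16* (-0.72, -1.06 to -0.40), *Ccl8* (-0.48, -0.61 to -0.35) and *Cxcl14* (-0.26, -0.44 to -0.08) below it. The log2 ratios were -0.13 (-0.50 to 0.22) for *Ccl11*, 0.31 (-0.22 to 0.83) for *Cxcl5*, -0.08 (-0.85 to 0.62) for *Cxcl10*, -0.39 (-1.21 to 0.35) for *Ccl22*, -0.79 (-1.84 to 0.10) for *Ccl5* and 1.04 (0.38 to 1.72) for *Ccl20*.

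Within the layers, *Cxcl12* was lower in the dermis, fat and muscle sets and not in the epidermis set. The log2 ratio was -2.02 (-2.29 to -1.77) in the dermis set, -2.26 (-2.75 to -1.82) in the fat set and -1.96 (-2.53 to -1.47) in the muscle set, or 4.06-, 4.78- and 3.90-fold. In the epidermis set it was 0.54 (-0.08 to 1.14), and 1.29 with a stricter marker share, which counted it as higher there. In the muscle sets the *Olfr* genes summed to 1543 CPM in *S1pr2* f/f and 1414 CPM in *S1pr2* f/f K14-Cre, a log2 ratio of -0.13 (-0.28 to 0.03). The muscle markers summed to 106054 and 189702 CPM in the same sets. The part of background or tissue in the *Cxcl12* difference was not tested. Lower counts were called for 12% of all genes in the dermis sets, 15.3% in the fat sets and 16.1% in the muscle sets. The *Cxcl12* receptors had log2 ratios over all spots of 0.67 (0.17 to 1.17) for *Cxcr4* (14.1 and 22.5 CPM) and 0.29 (0.02 to 0.56) for *Ackr3* (54.4 and 66.4 CPM), and *Ackr3* had -0.70 (-1.38 to -0.06) in the dermis sets.

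*Ccl7* was higher in the epidermis, fat and muscle sets. It had 14.8 and 41.1 CPM in the epidermis sets (log2 ratio 1.47, 0.53 to 2.44), 46.4 and 94.3 CPM in the fat sets (1.01, 0.02 to 2.07) and 17.5 and 62.8 CPM in the muscle sets (1.80, 0.71 to 3.07). These rest on 18 and 24, 15 and 23, and 10 and 23 UMIs, and a stricter marker share for the sets ended the count as higher in the epidermis and muscle sets. In the fat sets that count ended with spots in several sets kept, with TMM scaling, with a pseudocount of 1 UMI and with a minimum of 50 UMIs, and in the epidermis and muscle sets it ended with that minimum too. In the dermis sets it had a log2 ratio of 0.73 (0.22 to 1.26), under 2-fold. The muscle set is the one where its interval lay above the *Olfr* ratio, and there 3.86% of all genes were counted as higher. The epidermis set is the one where the background differed most, with *Olfr* genes at 1088 and 7485 CPM (log2 ratio 2.78, 2.69 to 2.87). All 7 ligands with 20 UMIs in the epidermis sets had an interval below that ratio. The median over all genes tested there, 0.31, was below it too, and the share of all genes with such an interval was not computed. *Ccl7* and *Ccl6* were the 2 ligands counted as higher (24.7% of all genes), and 0 were counted as lower (9.59%).

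**Figure D4:**
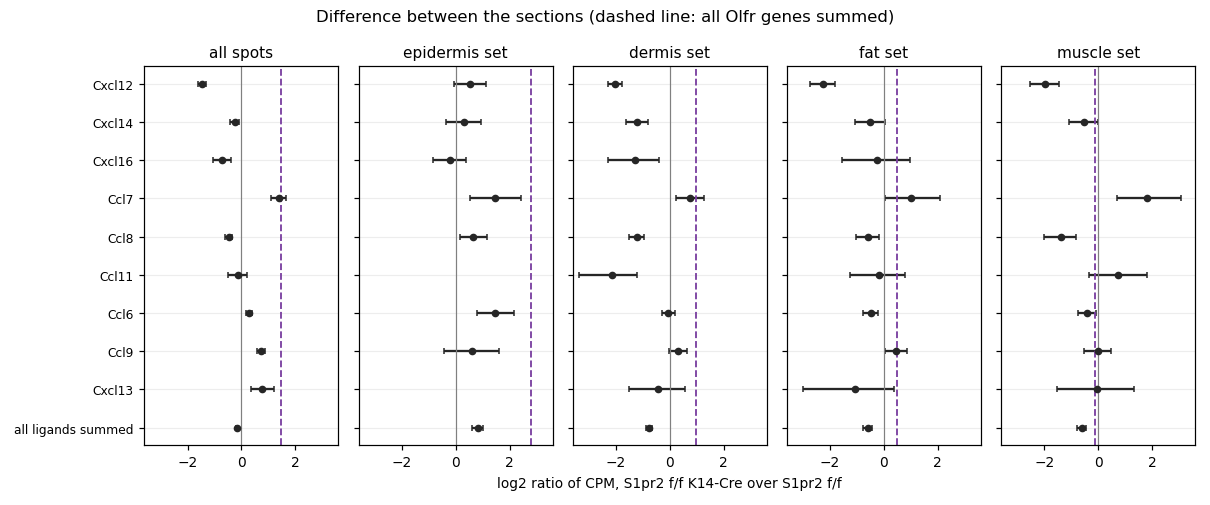
Log2 ratio of CPM, *S1pr2* f/f K14-Cre over *S1pr2* f/f, over all spots and in each set, for the 9 ligands above every *Olfr* gene in both sections and for all 30 ligands summed. Bars are 95% conditional binomial intervals, ligands under 20 UMIs in a set are left out, and the dashed line is the ratio of all *Olfr* genes summed. *Cxcl12* is left of 0 in every panel but the epidermis set, and *Ccl7* is right of 0 in all 5.

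In the dermis sets 5 of 12 ligands were counted as lower, beside 12% of all genes, and *Cxcl9* was counted as higher (8 and 19 UMIs, log2 ratio 1.47, 0.26 to 2.92, 8.89% of all genes). Besides *Cxcl12* these were *Ccl11* (-2.16, -3.35 to -1.23), *Cxcl16* (-1.28, -2.30 to -0.41), *Ccl8* (-1.22, -1.50 to -0.94) and *Cxcl14* (-1.21, -1.62 to -0.82). The count of *Ccl8* as lower ended with a stricter marker share and with spots in several sets kept, and that of *Cxcl9* as higher with spots in several sets kept, TMM scaling or a minimum of 50 UMIs. The dermis markers summed were not lower in the dermis set of *S1pr2* f/f K14-Cre (log2 ratio 0.47), and its muscle markers were higher (3.06). *Ccl8* was also lower in the muscle sets (225 and 84.6 CPM, -1.39, -2.02 to -0.83). *Ccl6* had 557 and 534 CPM in the dermis sets (-0.06, -0.30 to 0.18) and *Ccl9* 156 and 156 CPM in the muscle sets (0.00, -0.51 to 0.49). *Ccl6* was below 0 in the fat (-0.48, -0.76 to -0.20) and muscle sets (-0.41, -0.74 to -0.09). The median log2 ratio over the ligands tested and over all genes tested was 0.61 and 0.31 in the epidermis sets, -0.67 and -0.09 in the dermis sets, -0.48 and -0.18 in the fat sets and -0.22 and -0.26 in the muscle sets. In the fat sets 1 of 9 ligands was higher (8.39% of all genes) and 1 lower, and all ligands summed had log2 ratios of 0.82 (0.61 to 1.02) in the epidermis sets, -0.77 (-0.88 to -0.66) in the dermis sets, -0.61 (-0.76 to -0.46) in the fat sets and -0.61 (-0.80 to -0.44) in the muscle sets. Sums without *Cxcl12* were not computed for the sets either.

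*Ccl7* and *Ccl8* lie in the same cluster on chromosome 11, *Ccl7* at chr11:82045712-82047525 and *Ccl8* at chr11:82115185-82116799, with *Ccl11* and *Ccl12* between them. Over all spots their log2 ratios, 1.38 and -0.48, had intervals on opposite sides of 0. *Ccl9* (chr11:83572917-83578636) and *Ccl6* (chr11:83587886-83593087) in a second group of that chromosome had the same leading set in both sections. Positions are those of RefSeq on GRCm38.p6, the build that the labels name as mm10.

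The sections were also divided along their length into 4 segments each, which are not replicates. *Cxcl12* ranged from 368 to 649 CPM over the segments of *S1pr2* f/f and from 96.3 to 258 CPM over those of *S1pr2* f/f K14-Cre, without overlap. *Ccl7* ranged from 17.9 to 56.4 and from 60.3 to 156 CPM, and *Ccl9* from 72.9 to 161 and from 191 to 324 CPM, also without overlap. For the other 11 of the 14 ligands above every *Olfr* gene in at least 1 section the ranges overlapped. Summed *Olfr* genes ranged from 1777 to 2362 CPM and from 3265 to 7465 CPM, without overlap as well. The share of all genes without overlap was not computed, so these ranges do not set the ligands apart from other genes.

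**Figure D5:**
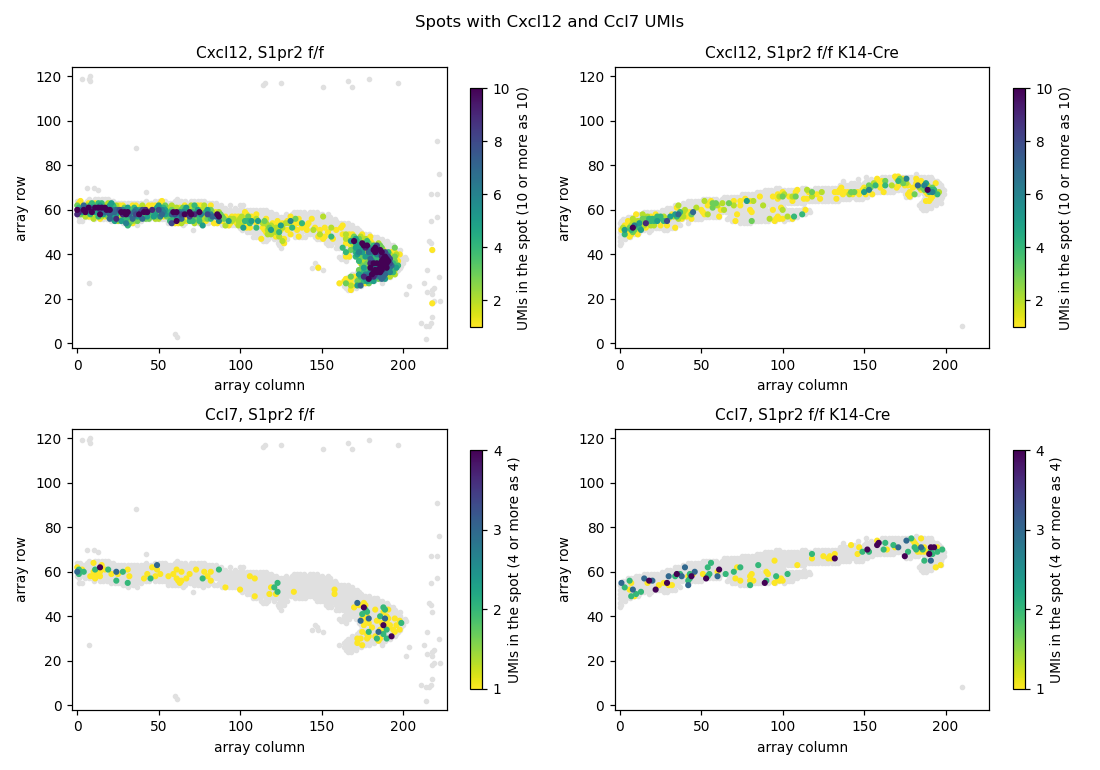
Spots of both sections by array column and row, grey where no UMI of the gene was found and coloured by UMIs otherwise. *Cxcl12* was found in 669 spots of *S1pr2* f/f and 247 of *S1pr2* f/f K14-Cre, and *Ccl7* in 131 and 121. The skin surface is towards the higher rows.

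Macrophage and mast cell markers moved with some ligands within a section. In spots rich in macrophage markers, *Ccl6* was 2.33 times (2.09 to 2.58) the level of the other spots in *S1pr2* f/f and 1.87 times (1.63 to 2.13) in *S1pr2* f/f K14-Cre, and *Ccl9* 2.03 times (1.71 to 2.40) and 1.72 times (1.44 to 2.04). In spots rich in mast cell markers, *Ccl7* was 2.46 times (1.77 to 3.39) and 2.12 times (1.60 to 2.79). Neither the rich nor the other spots include the epidermis set. These pairs were chosen from 14 ligands and several marker lists, and the share of all genes was not computed. *Cxcl12* was also higher in macrophage-rich spots, 1.88 times (1.72 to 2.05) and 1.79 times (1.47 to 2.18). *Cxcl10* was lower there in *S1pr2* f/f, and *Cxcl5* in *S1pr2* f/f K14-Cre. Higher ratios were therefore not particular to *Ccl6* and *Ccl9*. The macrophage and mast cell lists were also high in the layers where the ligands were high, and a spot with both is not a cell with both. Between the sections, the 8 macrophage markers summed to 2034 and 2471 CPM over all spots (log2 ratio 0.28), 3910 and 4567 in the dermis sets (0.22) and 2132 and 2026 in the muscle sets (-0.07), and the 7 mast cell markers to 135 and 125 CPM over all spots (-0.11). The 8 neutrophil markers, *S100a8* and *S100a9* among them, summed to 12935 and 2664 CPM over all spots (-2.28). Their sum was also lower in *S1pr2* f/f K14-Cre in all 4 sets. *Cxcr2*, which is in that list, did not follow the sum. It had 26.5 and 28.1 CPM over all spots (0.09, -0.33 to 0.49) and 49.2 and 63.4 CPM in the epidermis sets (0.37, -0.27 to 0.98). The sum is therefore no count of neutrophils. The part of these marker lists in the differences of the ligands was not tested.

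All 22 chemokine receptors of the list were measured. More UMIs than the 95th percentile of *Olfr* genes were found for 18 in *S1pr2* f/f, 13 in *S1pr2* f/f K14-Cre and 11 in both, beside 72.9%, 64.4% and 61.4% of all genes other than *Olfr*. Those above every *Olfr* gene in both sections included *Ccr2*, the monocyte receptor for *Ccl7* (768 and 502 UMIs), *Ackr3* (289 and 189), *Cxcr2*, the neutrophil receptor (141 and 80), *Ackr1* (140 and 73), *Ccr6*, the receptor for *Ccl20* (76 and 59), *Cxcr4* (75 and 64), *Ackr4* (73 and 61) and *Cx3cr1* (49 and 82). *Ackr2*, *Ccr4*, *Cxcr6* and *Xcr1* were above it in *S1pr2* f/f only, with 39, 46, 58 and 37 UMIs there and 35, 44, 32 and 28 in *S1pr2* f/f K14-Cre.

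Over all spots 6 of the 22 receptors were counted as higher in *S1pr2* f/f K14-Cre and 0 as lower, beside 27.4% and 4.4% of all genes, and none had an interval above the *Olfr* ratio. *Ccr2* had 144 and 176 CPM over all spots (log2 ratio 0.29, 0.12 to 0.45) and 247 and 248 CPM in the dermis sets (0.00, -0.35 to 0.36). *Cx3cr1* had 9.22 and 28.8 CPM (1.64, 1.12 to 2.19).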

How the data were processed

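Skin sections of 10 µm from formalin-fixed, paraffin-embedded tissue were profiled with a probe-based spatial assay on capture areas of 11 mm. The deposited matrices give for each spot under tissue the UMI count of each gene, which the authors obtained with Space Ranger 3.0.0 on mm10 without normalisation, and the probe set is not given in the sources used here. Counts were summed over spots and scaled to CPM. Analyses used Python 3.11.15 with numpy 2.4.6, scipy 1.17.1, pandas 2.3.3 and scanpy 1.11.5, igraph 0.11.9, matplotlib 3.10.9, and edgeR 4.0.16 in R 4.3.3 for TMM factors only. Sections were grouped by the genotype in their labels. With 1 section per genotype no test was possible. The calculations were checked on simulated counts.

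Ligands above every *Olfr* gene in at least 1 section were described in full, those above the 95th percentile by UMIs and ratio, and the others by range. Receptors above every *Olfr* gene in at least 1 section were named, except where an item is not reported here. The members and lists were chosen with earlier results of these data known. There were 11 duplicated symbols, none of them a ligand, and 357 spot barcodes occurred in both sections, since they mark positions of the array. Alternatives were other marker thresholds, spot clusters, position, scalings, minimum UMIs, pseudocounts and thinning of each spot to 1000 UMIs. Doublets do not apply to spots.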

Additional observations from a re-analysis of the deposited data

Results flagged for a closer look

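*Ccl8* had a higher level in the epidermis set of *S1pr2* f/f K14-Cre (log2 ratio 0.66, 0.16 to 1.15) and a lower one in its muscle set (-1.39, -2.02 to -0.83), so that 2 sets of spots differed in opposite directions. The difference between these sets was not tested. *Olfr* genes summed had log2 ratios of 2.78 and -0.13 in the same sets.

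*Ccl6* was likewise higher in the epidermis set (1.46, 0.79 to 2.15) and lower in the fat set (-0.48, -0.76 to -0.20), and this difference was not tested either. The *Olfr* log2 ratio was 0.48 in the fat sets, and macrophage markers summed had log2 ratios of 0.68 in the epidermis sets and -0.30 in the fat sets.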

How the results depend on the processing

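No paired analysis was possible because each genotype had 1 section, and for the same reason no replicate could be left out. *Cxcl12* was counted as lower over all spots and in the dermis, fat and muscle sets under every alternative run. Over all spots, taking off the mean *Olfr* count left 5 ligands higher and 6 lower (8 and 1 as reported) and a summed log2 ratio of -0.29 (reported -0.16). TMM, which moved every log2 ratio by -0.37, gave 3 lower, a summed ratio of -0.53 and -0.10 for *Ccl6*, whose sign it turned. Thinning to 1000 UMIs and a minimum of 50 UMIs each left 3 higher (*Ccl7*, *Ccl20* and *Cxcl9*). Of these, *Ccl20* was no longer counted as higher with the mean *Olfr* count taken off or with TMM. The minimum of 50 UMIs left 1 ligand higher in the epidermis sets (reported 2) and 0 in the dermis, fat and muscle sets (reported 1 each). Keeping spots that belong to several sets, and TMM, gave 0 higher in the dermis and 0 in the fat sets, a pseudocount of 1 UMI gave 0 in the fat sets, a stricter marker share gave 2 higher there and turned *Ccl6* to 0.19, and TMM gave 2 lower there. Keeping spots in several sets gave 7 of 9 ligands the same leading set (reported 4). The share of all genes under that setting was not computed, so this count does not set the ligands apart. Position, the 2 uppermost spots of each column against the deeper ones, gave 5 of 9 lower at the surface (reported 8), namely *Ccl6*, *Ccl9*, *Ccl11*, *Cxcl12* and *Cxcl14*. The cause of these moves was not tested. That stricter share also called *Cxcl12* higher in place of *Ccl7* in the epidermis sets and *Ccl11* in place of *Ccl7* in the muscle sets, and, like keeping spots in several sets, it dropped *Ccl8* from the lower ligands of the dermis sets. Of 306 values for single ligands under an alternative, 26 had another sign than the reported ratio. In 21 of these the reported interval held 0, and in 5 it did not, namely *Ccl6* in the 2 cases above, *Ccl26* (-1.12) and *Ccl28* (-0.16) with the mean *Olfr* count taken off, and *Xcl1* (-0.19) with thinning.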

Other observations

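Within a single set of spots, some ligands under the minimum of 20 UMIs there were found in 1 section only, and they were chosen after their values were seen. Over all spots they were found in both sections, *Cxcl1* with 8 and 24 UMIs and *Ccl2* with 23 and 22. *Cxcl1* had 0 and 10 UMIs in the dermis sets of *S1pr2* f/f and *S1pr2* f/f K14-Cre, and *Ccl2* had 0 and 12 UMIs in the epidermis sets. The intervals of these counts of 0 end at 6.17 CPM for *Cxcl1* and 3.03 CPM for *Ccl2*. For *Cxcl1* the interval of the log2 ratio began at 1.43, above the *Olfr* ratio of 0.99 in the dermis sets, and its 10 UMIs there were above the 95th percentile of *Olfr* genes (8) and under the highest (19). It also passed that percentile in the fat (6 UMIs) and muscle sets (4 UMIs) of *S1pr2* f/f K14-Cre. For *Ccl2* the interval began at 2.54, under the *Olfr* ratio of 2.78 in the epidermis sets. Its 12 UMIs in the epidermis set of *S1pr2* f/f K14-Cre were not above the 95th percentile of *Olfr* genes there (12).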
